A study of Drosophila melanogaster with 2 samples.

Results

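The 10 genes described here are core members of Wnt signalling in Drosophila melanogaster: wg, fz, fz2, arr, dsh, Axn, sgg, arm, pan and nkd. Each was found by its symbol in the Ensembl annotation, and its region is the annotated gene span plus 5 kb on each side. They are 10 of 13945 annotated protein-coding genes, and their regions make up 484.2 kb. The regions overlapped 114 of 21725 pooled candidate intervals and 5 of 1696 peaks in the list that passed the irreproducible discovery rate (IDR) filter. They overlapped 152 of 30000 candidates of replicate 1 and 159 of 30000 of replicate 2.

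Chromatin of whole embryos aged 0 to 24 h, males and females together, was immunoprecipitated and sequenced. The embryos were of the strain luna-MiMIC-GFP. This line carries an eGFP exon inside an intron of luna, which makes a luna-eGFP fusion protein, and an antibody against GFP was used. The tagged protein, Luna, is a KLF-type transcription factor with zinc fingers. There are 2 biological replicates of this 1 group, both of 1 tagged line, so the signal is an average over all embryonic cell types and stages. Candidates are all intervals that entered the IDR step, which by their label include background as well as peaks. Depth is unknown, because the files used give no read counts. The control was not analysed here. The authors scored each peak with a signal value whose scale is not stated, so ranks are used, with 1 for the strongest in a list. The IDR peaks are the 1696 strongest pooled candidates, and the weakest of them had a signal of 46.4.

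Wg is a secreted ligand that binds the frizzled receptors Fz and Fz2 together with the co-receptor Arr. The signal passes through Dsh to a complex of Axn and the kinase Sgg, which in the absence of ligand marks Arm, the fly beta-catenin, for destruction. Arm that escapes destruction enters the nucleus and acts with the TCF factor Pan on target genes. The gene nkd is a target of the pathway and encodes an inhibitor that binds Dsh. In embryos this pathway sets up the polarity of the segments.

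Luna-GFP had an IDR peak in the region of 5 of the 10 genes, namely sgg, dsh, fz, pan and arr, with 1 peak each. Only at sgg, the kinase gene, did the summit lie at a promoter of the gene itself, defined as within 500 bp of one of its transcription start sites (TSSs). The peaks at fz and arr lay deep in introns, and those near dsh and pan lay outside the gene, by the neighbours CG1737 and RpS3A. In the pooled list the ligand gene wg had the weakest best candidate of the 10, while in replicate 1 its best candidate ranked 2223, ahead of those of nkd, arm and fz2. The share of 5 in 10 genes (Wilson 95% interval 23.7 to 76.3%) stands beside a background of 28.9% of all protein-coding genes. Within the gene spans alone, without the flank, 3 of 10 genes had an IDR peak, fz, arr and sgg, against 11.2% of all protein-coding genes. These genes are long, with spans of 94.3, 29.6 and 45.6 kb, and the 11.2% is not matched for length. For a promoter summit, 1 of 10 genes (1.79 to 40.4%) stands beside 10.7%. Of the 5 peaks, 1 had a TSS of the Wnt pathway gene as the nearest one, while over all protein-coding genes this held for 28.6% of the pairs of a gene and a peak in its region. Intervals cover counting error only, and as the design has no second condition, every comparison is a description with no test.

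The length of a gene bears on these counts, since a longer region can hold more peaks. The members' regions had a median of 45.7 kb, against 12.2 kb for all protein-coding genes. Of the 6 members with a region of at least 30 kb, fz, fz2, arr, pan, sgg and nkd, 4 had an IDR peak, and 38.2% of the 1013 protein-coding genes of that length did. Of the 4 members with a shorter region, wg, arm, Axn and dsh, 1 had an IDR peak, and 28.2% of the shorter genes did. Per length, the members' regions held 1.03 IDR peaks per 100 kb, against 1.49 in the regions of all protein-coding genes and 0.952 in those of at least 30 kb. The intervals of these counts are wide, the one for all 10 genes includes 28.9%, and the density of peaks lay between both backgrounds.

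**Figure D1:**
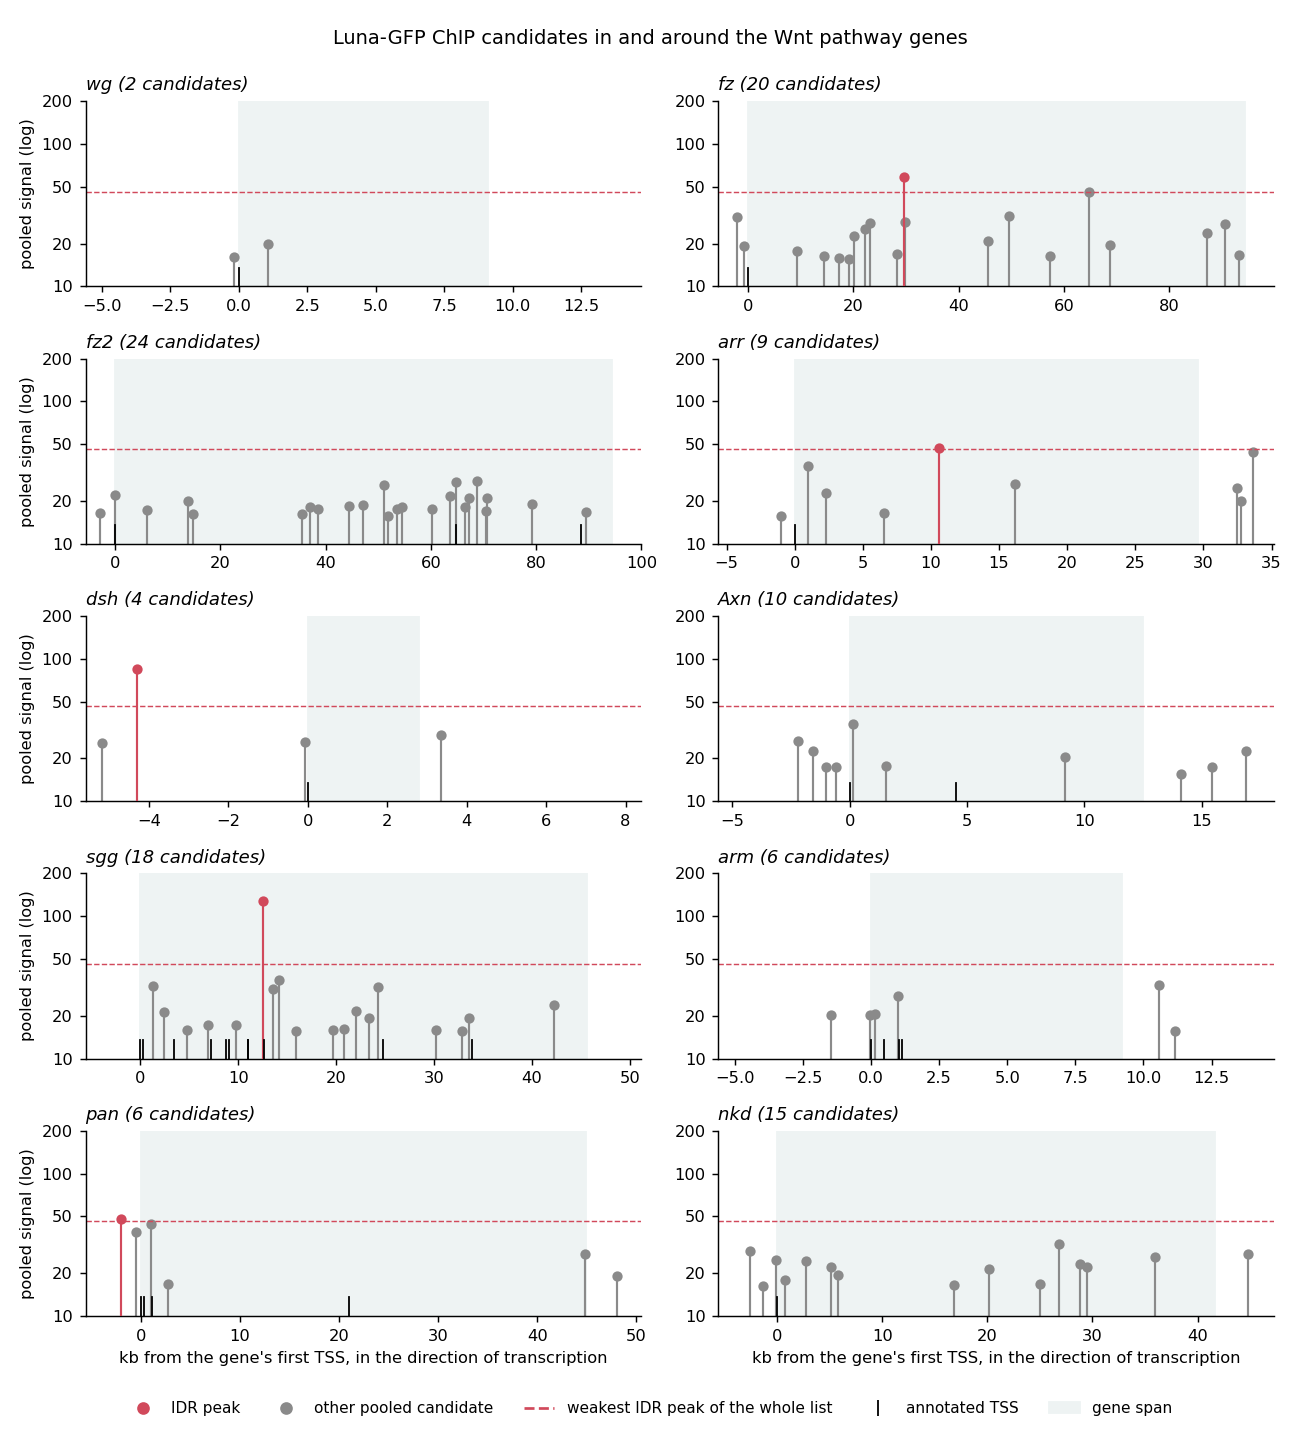
Pooled candidates in the 10 gene regions, each plotted at its summit's distance in kb from the gene's first TSS along the direction of transcription (x axis) and its pooled signal (y axis, log scale). Red points are the 5 IDR peaks, grey points are the 109 weaker candidates, black ticks are TSSs, the shaded span is the gene, and the dashed line is the weakest IDR signal of 46.4; the peak in sgg stands at 127 and both candidates of wg stay at or below 19.9.

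The sequences around the summits show what kind of DNA carried these peaks. The windows below, from the RefSeq copy of the Release 6 genome, which has dm6 coordinates, run 100 bp to each side of the summit in the direction of the member gene, and annotated UTR bases were cut off. They are the IDR windows of sgg, dsh, fz and pan and, for comparison, the candidates at the promoters of pan and dsh themselves. Capitals mark matches, on either strand, to the motifs searched for. These were the core CTTTGAT that TCF factors such as Pan bind, the KLF core CACNCCC and the short core CGATA, which occurs in insulator elements. The others were the Dref element TATCGATA that has CGATA within it, the GAGA factor element GAGAG, the core promoter element GGTCACACT and the homeodomain core TAATTA.
sgg IDR peak, chrX:2646341-2646541, plus strand: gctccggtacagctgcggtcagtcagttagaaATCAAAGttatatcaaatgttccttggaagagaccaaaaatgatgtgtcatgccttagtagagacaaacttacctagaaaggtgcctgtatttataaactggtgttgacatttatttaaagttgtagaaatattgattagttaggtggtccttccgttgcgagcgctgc
dsh region IDR peak, chrX:11351466-11351666, plus strand: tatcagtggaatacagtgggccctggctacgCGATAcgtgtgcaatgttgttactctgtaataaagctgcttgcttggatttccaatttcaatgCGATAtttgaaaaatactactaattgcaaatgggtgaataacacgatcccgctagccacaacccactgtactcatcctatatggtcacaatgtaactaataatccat
fz IDR peak, chr3L:14303874-14304074, plus strand: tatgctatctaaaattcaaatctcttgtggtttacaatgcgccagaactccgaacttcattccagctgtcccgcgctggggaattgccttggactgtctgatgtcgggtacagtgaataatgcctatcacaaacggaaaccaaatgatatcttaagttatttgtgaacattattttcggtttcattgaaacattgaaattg
pan region IDR peak, chr4:67208-67358, plus strand: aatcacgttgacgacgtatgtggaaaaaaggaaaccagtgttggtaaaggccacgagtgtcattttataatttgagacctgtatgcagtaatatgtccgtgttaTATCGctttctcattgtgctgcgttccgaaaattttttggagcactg
pan own promoter, chr4:70283-70404, plus strand: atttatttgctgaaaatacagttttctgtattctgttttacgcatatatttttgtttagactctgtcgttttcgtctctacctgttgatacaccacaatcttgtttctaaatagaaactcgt
dsh own promoter, chrX:11355712-11355880, plus strand: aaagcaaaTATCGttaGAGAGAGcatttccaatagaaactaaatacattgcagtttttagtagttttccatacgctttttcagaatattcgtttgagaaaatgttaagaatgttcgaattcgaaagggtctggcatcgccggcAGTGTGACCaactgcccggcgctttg

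The window of the sgg peak held the TCF core, in capitals as its reverse complement, and none of the other motifs. That core was present in 1 of the 5 member IDR windows and in 2.77% of all 1696 IDR windows. The windows near dsh and pan held the core CGATA, which occurs in insulator elements bound by the protein BEAF-32, with a pair of copies near dsh. It was in 36.7% of all IDR windows. A core this short also recurs by chance, and no chance rate was computed, so a match is not shown to be an insulator site. No member IDR window held the KLF core, which 4.72% of all IDR windows had, and the fz window matched none of the motifs. With only 5 windows these counts describe single sites. Over all 114 candidates in the gene regions, the KLF core was in 8.77% (Wilson 95% interval 4.84 to 15.4), against 7.96% of all pooled candidates. The TCF core was in 2.63% against 3.34%, the core CGATA in 29.8% against 25.3%, the GAGA element in 20.2% against 23.9% and the homeodomain core in 13.2% against 11.4%. The core promoter element was in 3 of the 114, 1 of them at the dsh promoter, or 2.63% against 1.197%. The Dref element was in 0 of 114 against 2.33%, with a Wilson upper limit of 3.26%. For each motif the value over all pooled candidates lay within the members' interval.

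The ligand gene wg, on the plus strand of 2L from 7307159 to 7316265 with 1 TSS, had the fewest candidates, 2 in a region of 19.1 kb. The candidate 1081 bp downstream of the TSS, in an intron, had a pooled signal of 19.9 and ranked 11646 of 21725. In replicate 1 it ranked 2223 with a signal of 19.3, and in replicate 2 no candidate overlapped it. The other, 166 bp upstream of the TSS, ranked 20193 in the pooled list and 18783 in replicate 2, and no candidate of replicate 1 overlapped it. Neither candidate of wg was thus seen in both replicates. Among all protein-coding genes, 74.7% had a candidate in their region stronger than the best one of wg.

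The receptor gene fz spans 94.3 kb on the plus strand of 3L, from 14274343 to 14368639, with 1 TSS. Its IDR peak, at 14303786 to 14304161, lay in an intron 29631 bp downstream of the TSS. The nearest TSS of any gene was that of lncRNA:CR45025, 22277 bp away. The peak had a pooled signal of 58.3 and rank 1051. The overlapping candidates ranked 738 in replicate 1 with a signal of 32.6, and 1840 in replicate 2 with a signal of 26.3. A weaker pooled candidate, of rank 4885, overlapped this peak on its 3' side and the same candidates of each replicate. A further intronic candidate, 64725 bp downstream of the TSS, fell just short of the IDR list, with rank 1722 and a signal of 46.0. It ranked 879 in replicate 1 and 5337 in replicate 2, so the replicates differed more at this site than at the peak. At the TSS of fz itself there was no pooled candidate within 500 bp, and the nearest upstream ones, 663 and 2067 bp away, ranked 12567 and 4106. In all, 17 of the 20 candidates of fz had their summit in its introns.

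The other frizzled gene, fz2, encodes a receptor that binds Wg with high affinity, and is as long as fz, with 94.4 kb on the minus strand of 3L from 19140975 to 19235373. Unlike fz it had no IDR peak, although it had the most pooled candidates of the 10 genes, 24. Their signals ran from 15.8 to 27.4, with a median of 18.1, and the strongest ranked 5256. That candidate lay in an intron 4082 bp downstream of the second of 3 TSSs, and ranked 20899 in replicate 1 and 5200 in replicate 2. At this second TSS a candidate 52 bp downstream, in the 5' UTR, ranked 5311 in the pooled list, 4459 in replicate 1 and 12034 in replicate 2. The first TSS had a candidate 51 bp upstream that ranked 8795, with ranks of 22695 in replicate 1 and 3997 in replicate 2. Both frizzled genes thus carried many weak intronic candidates, and a strong one was found in fz alone.

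The co-receptor gene arr, which encodes an LRP-type receptor, is found at 13453640 to 13483229 on the chromosome arm 2R, minus strand. Its IDR peak was intronic, at 13472423 to 13472798 and 10618 bp downstream of the arr TSS. The nearest TSS of any gene was that of CG43192, with the summit 4731 bp upstream of it. The peak was among the weakest of the list, with rank 1652 of 1696 and a signal of 46.9. It ranked 1413 in replicate 1 with a signal of 23.8 and 3256 in replicate 2 with a signal of 20.5. At 25.9% GC, its window was the poorest in G and C of the 5, which otherwise had 39.3 to 40.8%, and it held none of the motifs. Closer to the TSS, a candidate 973 bp downstream ranked 3024 in the pooled list, 7375 in replicate 1 and 2401 in replicate 2. A candidate just under the IDR cut, rank 1881 with a signal of 44.0, lay in the flank of the region. It was in an intron of the neighbour cnn, which encodes the centrosome protein Centrosomin, and 199 bp upstream of an internal TSS of cnn. This candidate ranked 752 in replicate 1, as the strongest there of the arr region, and 3600 in replicate 2. Within 500 bp of the arr TSS there was no pooled candidate.

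The gene dsh, whose protein relays the signal from the receptors, is short, with 2.8 kb on the plus strand of X from 11355881 to 11358724. The IDR peak of its region ranked 451 with a pooled signal of 84.6, the runner-up of the 10 genes, and both replicates ranked it high, 579 in replicate 1 with a signal of 36.2 and 366 in replicate 2 with 51.6. It lay at 11351378 to 11351753, 4315 bp upstream of the dsh TSS. This position is in an intron of the neighbour CG1737, 958 bp downstream of its TSS, and the TSS of NdufV3 lay 1568 bp away. The peak is therefore counted for dsh by the 5 kb flank and is closer to other genes. At the dsh promoter itself a candidate 69 bp upstream of the TSS ranked 5946 with a pooled signal of 26.0, and ranked 9127 in replicate 1 and 10654 in replicate 2. A candidate 10 bp downstream of the TSS of the neighbour Pa1 ranked 4456, and 1741 in replicate 2, with none in replicate 1.

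In the destruction complex, the kinase gene sgg had the strongest peak of the 10 genes and the scaffold gene Axn had none in the IDR list. The gene sgg, which encodes the fly GSK-3 kinase, spans 45.6 kb on the plus strand of X from 2633952 to 2679553 and has 11 annotated TSSs. Its peak, at 2646253 to 2646628, ranked 175 of 1696 with a pooled signal of 127. It ranked 286 in replicate 1 with a signal of 49.65 and 128 in replicate 2 with 76.5. The summit lay 196 bp upstream of TSS number 9, counted along the gene, which starts 12685 bp downstream of the first. In the replicates the summits were 194 and 172 bp upstream of that TSS. A pooled candidate was found within 500 bp of 3 of the 11 TSSs, and apart from the peak these ranked 17155 and 12908. Somewhat farther out, a candidate 524 bp upstream of TSS number 10 ranked 3715, with ranks of 4571 in replicate 1 and 6722 in replicate 2. Another, 1037 bp downstream of TSS number 2, ranked 3669, with ranks of 2440 and 8938 in replicates 1 and 2. Near the peak, candidates 1511 and 886 bp downstream of TSS number 9 ranked 2935 and 4026. The weaker of these ranked 1415 in replicate 2 and overlapped no candidate of replicate 1. Of the 18 candidates in the region, 17 had a TSS of sgg as the nearest one.

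The scaffold gene Axn lies on the plus strand of 3R from 30022842 to 30035311 in a crowded stretch, with 8 other protein-coding genes in its region. Its own promoter held its strongest candidate, 131 bp downstream of the first TSS in the 5' UTR, with a pooled signal of 34.8 and rank 3138. It ranked 2094 in replicate 1 with a signal of 19.8 and 4491 in replicate 2 with 17.9, so neither replicate placed it among its 1696 strongest. The region had the highest density of candidates of the 10, 4.45 per 10 kb, but only 2 of its 10 candidates had a TSS of Axn as the nearest one. The others belonged by that measure to neighbours such as Mgat2, janB, Sry-alpha and ZIPIC.

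The gene arm, which encodes the beta-catenin that carries the signal into the nucleus, lies on the minus strand of X from 1891401 to 1900646. None of its 6 candidates was an IDR peak, and each lay within 500 bp of a TSS of some gene. The strongest, with a signal of 32.9 and rank 3521, was 140 bp upstream of trr, a histone methyltransferase gene, and ranked 19696 in replicate 1 and 2414 in replicate 2. At arm itself a candidate 61 bp upstream of the third of 4 TSSs had a signal of 27.6 and rank 5163. It ranked 3106 in replicate 2, and no candidate of replicate 1 overlapped it. A pair of weaker candidates at the first TSS, 161 bp downstream and 40 bp upstream, ranked 10859 and 11232, and both overlapped the same candidate of rank 3566 in replicate 2. The downstream one also overlapped a candidate of replicate 1, of rank 3856 with a signal of 15.5, and the upstream one overlapped none there.

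The TCF gene pan lies on the small chromosome 4, on the plus strand from 69326 to 114270. The IDR peak of its region, at 67070 to 67445, ranked 1557 with a pooled signal of 48.2, and ranked 1874 in replicate 1 with a signal of 20.9 and 1165 in replicate 2 with 31.8. It lay 2068 bp upstream of the first pan TSS but 51 bp upstream of the TSS of RpS3A, a gene for a protein of the small ribosomal subunit that is transcribed in the opposite direction. At pan itself, a candidate 22 bp upstream of the third of 4 TSSs came close to the IDR list, with rank 1885 and a signal of 43.9. It ranked 2181 in replicate 1 with a signal of 19.4 and 3197 in replicate 2 with 20.6. Another candidate 541 bp upstream of the first TSS ranked 2418, with ranks of 2600 and 2124 in replicates 1 and 2. The 5' end of pan thus had 3 candidates of similar pooled signal, 48.2, 43.9 and 39.1, between 2068 bp before and 1057 bp after the first TSS, and both replicates had a candidate at each. Over the rest of its 54.9 kb region only 3 weaker ones were found, or 1.09 candidates per 10 kb in all.

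The feedback inhibitor gene nkd spans 41.7 kb on the minus strand of 3L from 19003741 to 19045449 and had 15 candidates, none of them an IDR peak. The strongest, in an intron 26775 bp downstream of the TSS, had a signal of 32.2 and rank 3674, and ranked 5442 in replicate 1 and 3827 in replicate 2. A candidate 91 bp upstream of the nkd TSS ranked 6667 with a pooled signal of 24.8. It ranked 2404 in replicate 2 with a signal of 23.4, and replicate 1 had none there. The only candidate of the region among the 1696 strongest of a replicate, rank 1507 in replicate 2, lay 69 bp upstream of the neighbour CG3808 by its pooled summit and had no partner in replicate 1. The pooled list gave that site rank 5388.

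**Figure D2:**
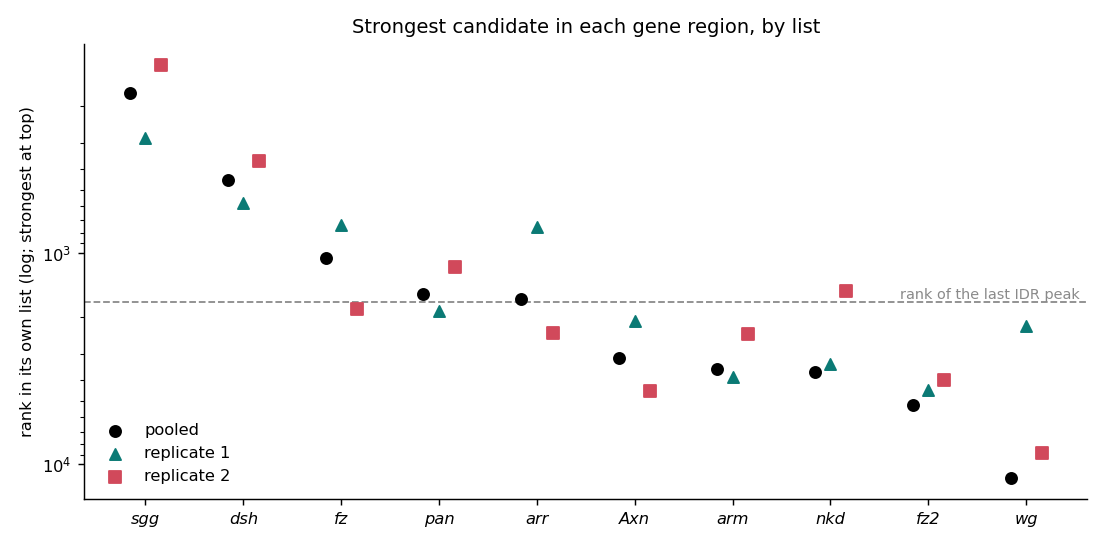
Rank of the strongest candidate in each gene region (y axis, log scale, strongest at the top) in the pooled list and in each replicate list, with genes ordered by pooled rank; the strongest candidate of one list need not lie at the same place as that of another. The dashed line is the rank of the last IDR peak, 1696: sgg and dsh lie above it in all 3 lists, fz and arr in replicate 1 but not in replicate 2, pan and nkd in replicate 2 but not in replicate 1, and Axn, arm, fz2 and wg in none.

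At the top of both replicate lists stood sgg and dsh alone. These 2 of 10 genes (Wilson 95% interval 5.67 to 51.0%) had a candidate among the 1696 strongest of each replicate, and 21.3% of all protein-coding genes did. Replicate 1 placed 6 candidates of the gene regions among its strongest 1696, in fz, arr, dsh and sgg, and replicate 2 placed 5, in pan, dsh, sgg and nkd. The IDR peaks of fz and arr thus stood higher in replicate 1 and that of pan higher in replicate 2. When the strongest 3392 of each replicate were taken, 6 of 10 genes had a candidate in both, with fz, arr, pan and nkd added, against 34.9% of all protein-coding genes. For nkd these lay at different places. Its best candidate of replicate 1, rank 3337, overlapped none of replicate 2, and those ranked 1507 and 2404 in replicate 2 overlapped none of replicate 1. All of the added genes have regions of at least 30 kb, and the 34.9% is not matched for length. Over the whole 114 pooled candidates, 64 overlapped a candidate of each replicate, or 56.1% (Wilson 95% interval 47.0 to 64.9), against 55.7% in the regions of all protein-coding genes. A further 19 overlapped a candidate of replicate 1 only, 27 of replicate 2 only and 4 of neither. Of the replicate candidates, 64 of 152 in replicate 1 and 62 of 159 in replicate 2 overlapped no pooled candidate, and the strongest of these ranked 3337, in nkd in replicate 1. The replicate lists hold 30000 candidates each, against 21725 in the pooled list. Matching shares over all candidates are not given for these counts, so they describe the gene regions only.

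The members' own promoters mostly held weak candidates. A pooled candidate within 500 bp of an own TSS was found for 8 of 10 genes, all but fz and arr (Wilson 95% interval 49.0 to 94.3%), against 45.9% of all protein-coding genes. After sgg with rank 175 came pan with 1885, Axn with 3138, arm with 5163, fz2 with 5311, dsh with 5946, nkd with 6667 and wg with 20193. For sgg, pan, Axn, arm, fz2 and dsh each replicate had a candidate within 500 bp of an own TSS. For nkd, wg, fz and arr replicate 2 alone had one. Counted by TSS, 14 of the 29 TSSs of the 10 genes had a pooled candidate within 500 bp, against 44.1% of the TSSs of all protein-coding genes, and 1 of 29 had an IDR peak, against 9.79%.

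**Figure D3:**
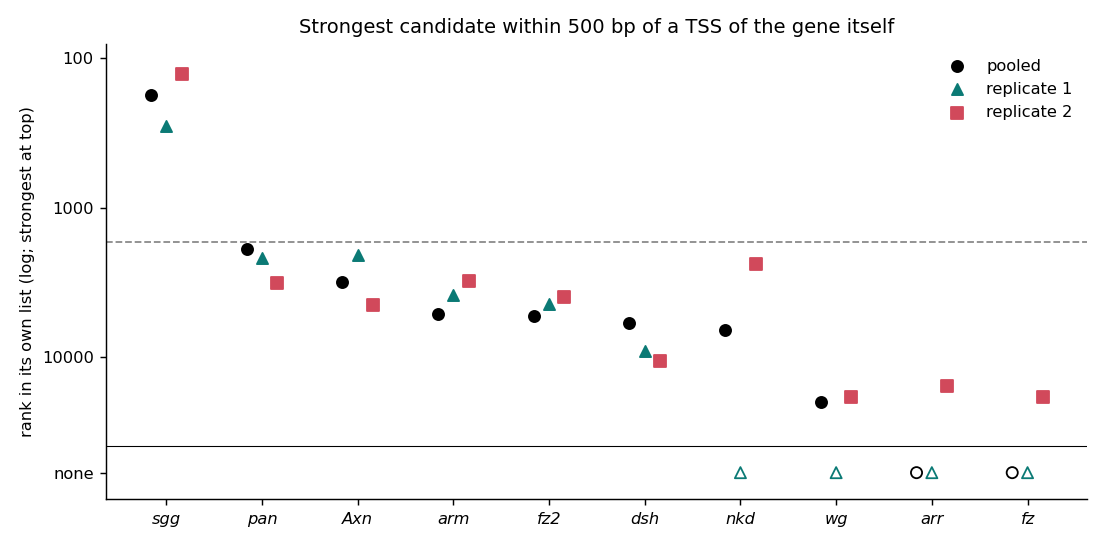
Rank of the strongest candidate within 500 bp of a TSS of the gene itself (y axis, log scale, strongest at the top) in the pooled list and in each replicate, with open symbols on the bottom line where a list had none. The dashed line is the rank of the last IDR peak, 1696; sgg alone lies above it, pan lies nearest below it with a pooled rank of 1885, and 4 genes lack a promoter candidate in replicate 1.

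Most candidates in the gene regions lay in introns. Of the 114, 70 or 61.4% (Wilson 95% interval 52.2 to 69.8) were intronic and more than 500 bp from any TSS, against 36.5% of all pooled candidates and 58.3% of those in protein-coding gene regions of at least 30 kb. Promoters of any gene held 30 or 26.3% (19.1 to 35.1), against 33.8% of all candidates and 23.8% in the long regions. Coding exons held 4 or 3.51% (1.37 to 8.68), against 10.05% of all candidates and 7.23% in the long regions. Intergenic sequence held 6 or 5.26% (2.43 to 11.01), against 14.1% and 5.17%. The 3' UTR held 3 or 2.63%, against 3.54% and 3.45%, and the 5' UTR 1 or 0.877%, against 1.19% and 1.57%. For introns the value over all candidates lay outside the members' counting interval, as it did for coding exons and intergenic sequence, while the values of the long regions lay within it for every class named here. These intervals count the 114 candidates as independent, although they come from 10 genes and some overlap each other. They are therefore likely too narrow, and a value outside one is a description only. Of the 30 promoter candidates, 13 had a TSS of a member as the nearest one and 17 that of another gene, and 17 lay upstream of the nearest TSS and 13 downstream. Counted over all 114, the nearest TSS was that of the member in 58.

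**Figure D4:**
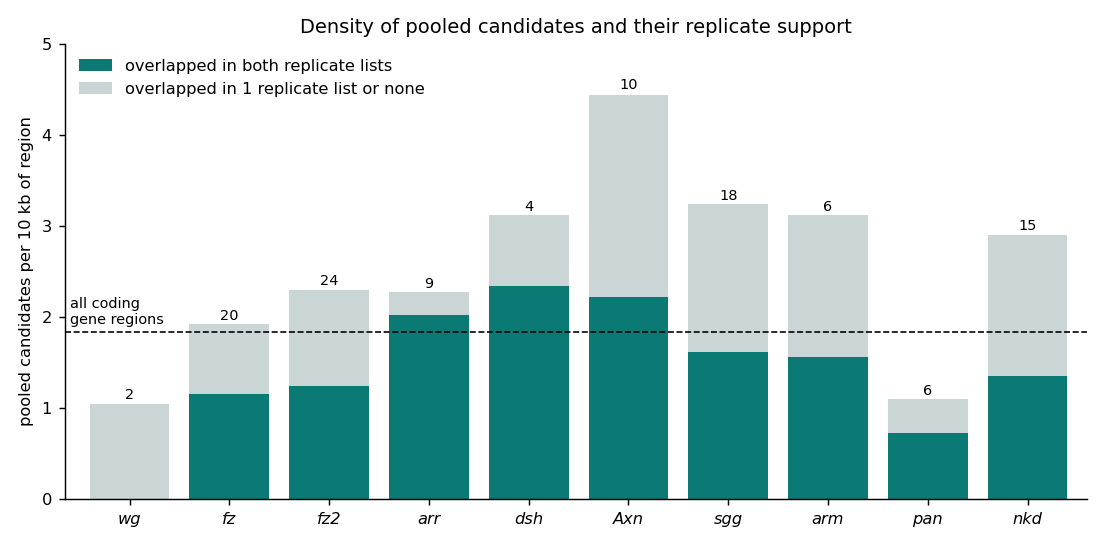
Pooled candidates per 10 kb of gene region for each gene (bar height; the number above is the count), with the dark part overlapping a candidate of each replicate list. The dashed line is the density over the merged regions of all protein-coding genes, 1.84; Axn has the highest density with 4.45, wg and pan the lowest with 1.05 and 1.09, and neither candidate of wg is in the dark part.

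The gene regions held 2.35 pooled candidates per 10 kb, against 1.84 in the regions of all protein-coding genes and 1.57 in those of at least 30 kb. Of these candidates 5 of 114, or 4.39%, were IDR peaks, against 8.09% in all protein-coding gene regions and 6.07% in the long ones. This share rests on 5 peaks and is given without an interval, so it does not show that the gene regions differ from either background. The median signal was 20.35 in the gene regions and 20.42 over all pooled candidates. The members' strongest candidates had a median pooled rank of 2395, with a range from 175 to 11646, against 3263 over the protein-coding genes that had a candidate and 2579 over those with a long region. A region with no pooled candidate at all was found for 1636 of 13945 protein-coding genes and for 0 of the 10. Set among genes of their own length class, sgg stood high, with 4.44% of genes having a stronger best candidate, and so did dsh with 9.38%. The others ran from fz with 27.7%, pan with 36.1% and arr with 37.5% through Axn with 42.3%, arm with 44.7% and nkd with 59.6% to fz2 with 70.0% and wg with 73.5%. The members were thus spread over most of the range of their class. The values of dsh, pan and arm come from candidates by the neighbours CG1737, RpS3A and trr, outside the member genes themselves.

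**Figure D5:**
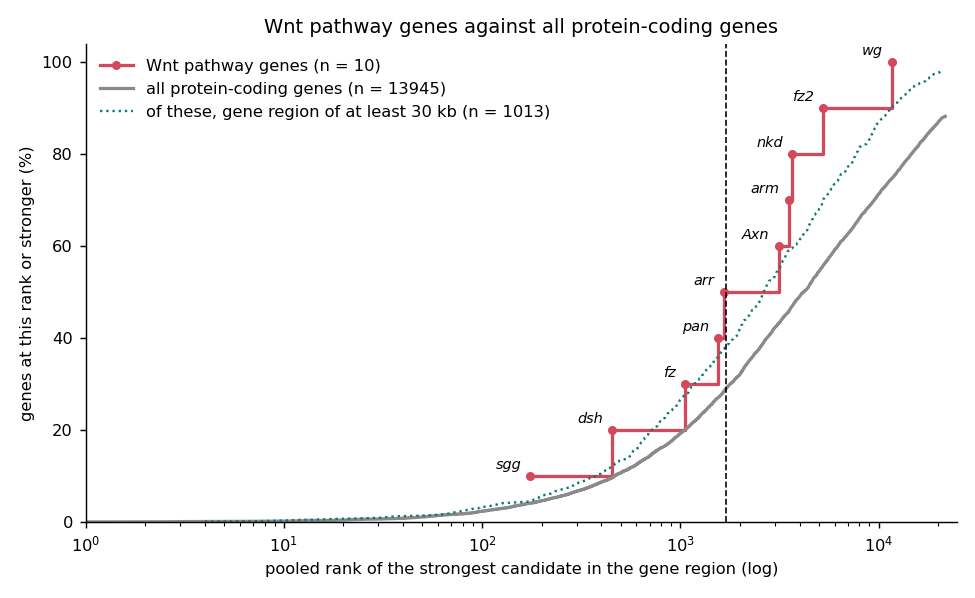
Share of genes (y axis, percent) whose strongest candidate has a given pooled rank or a stronger one (x axis, log scale) for the 10 Wnt pathway genes in red, all 13945 protein-coding genes in grey and the 1013 of these with a region of at least 30 kb as a dotted line. The dashed vertical line is the last IDR rank, 1696, which 5 of the 10 genes, 28.9% of all genes and 38.2% of those with a long region reached; sgg is the strongest of the 10 genes and wg the weakest.

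Other genes of the pathway were read from 4 lists with 50 genes in all, of which 13 had an IDR peak in their region and 4 at an own promoter, beside the backgrounds of 28.9% and 10.7%. Of 15 genes for further Wnt ligands, receptors, and the transport and modification of ligands, 3 had a peak in the region and 0 at a promoter. The receptor gene fz3 had one of rank 246, 31 bp upstream of the neighbour RpL22, and Notum, which encodes a secreted Wnt deacylase, had one of rank 351 that was 1562 bp from the TSS of CG5895. Notum also had an intronic peak of rank 1455, 2847 bp from its own TSS. The glypican gene dlp had one of rank 1667 in an intron, 4191 bp upstream of the nearest TSS, that of lncRNA:CR45888. As with wg, none of the other ligand genes of the list, Wnt2, Wnt4, Wnt5, Wnt6, wntD and Wnt10, had an IDR peak in the region.

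The list of cytoplasmic and nuclear components held all 4 genes with a promoter peak, among 17 genes of which 6 had a peak in the region. The strongest was at gish, which encodes a kinase of the casein kinase I family, 168 bp upstream of a TSS, with rank 27 and a signal of 287, and both replicates ranked it high, 28 in replicate 1 and 24 in replicate 2. The corepressor gene gro, whose protein binds Pan in the absence of Arm, had peaks at promoters of rank 137 and 593, 85 and 74 bp upstream of TSSs. CkIalpha, the gene for the kinase that primes Arm for Sgg, had one of rank 564, 26 bp upstream of a TSS. The F-box gene slmb, whose product takes part in the destruction of Arm, had one of rank 1537, 51 bp upstream of its TSS and 37 bp upstream of CG5793, so that both genes share it. The peaks counted for Apc and ebd1, of rank 462 and 763, lay 133 bp upstream of WASp and 131 bp upstream of a TSS of CG17129.

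Planar polarity is a process in which fz and dsh act outside the beta-catenin branch. Of 7 other planar polarity genes, 2 had a peak in the region. The peak at ft had rank 1388 and lay 2491 bp upstream of its TSS. That at Vang had rank 1413 and lay 64 bp upstream of the neighbour tsu. The peak at Vang ranked 670 in replicate 1 and 4048 in replicate 2, and among the 1696 strongest of replicate 2 alone 0 of the 7 genes had one in the region, against 28.1% of all protein-coding genes. Of 11 textbook targets of Wg signalling, slp2 had a peak of rank 418, 4309 bp upstream of its TSS, and the peak counted for vg, of rank 1253, lay 130 bp upstream of a TSS of Nmda1. For en, slp1, Ubx, lab, Dll, sens, dpp, eve and Dfd there was none in the region. Neither list had a peak at an own promoter.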

How the data were processed

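Per the labels, chromatin of the luna-eGFP line was sonicated to 200 to 800 bp, and the 2 libraries are biological replicates. The authors deposited narrowPeak lists for dm6 and dm3. Per the deposited README texts, each replicate list came from that replicate's alignment and a control, the pooled list from both alignments, and the IDR list from these 3 lists. Aligner, peak caller, versions and IDR threshold were not given in the sources used here. Signal values as deposited by the authors are treated as a score with no stated scale and used to rank peaks within a list. The dm3 lists were not used here. Depth is unknown.

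Genes and TSSs came from Ensembl release 115 (BDGP6.54, dm6 coordinates, 1-based, transposable elements left out). All 10 member symbols and all 50 symbols of the other lists matched. Intervals were joined by an overlap of at least 1 bp, and for a replicate the strongest overlapping candidate is given. The nearest TSS is that of any annotated gene. Motifs were read within 100 bp of each summit. Counting was checked on planted intervals and motifs. Python 3.11.15, numpy 2.4.6 and scipy 1.17.1 were used. The members and lists were chosen with earlier results of these data known. Named are all members, the gene with the nearest TSS at each described peak, and in the other lists genes with a promoter peak and up to 3 more with the strongest peak in the region.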

Additional observations from a re-analysis of the deposited data

How the results depend on the processing

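Without the 5 kb flank, 3 genes (fz, arr and sgg) had an IDR peak, with 3 peaks, against 5 and 5, and among the stronger 848 IDR peaks 2 genes (dsh and sgg) had one, with 2 peaks. A flank of 10 kb gave 6 genes, with Axn added. The strongest 1696 candidates of replicate 1 alone gave 4 genes (fz, arr, dsh and sgg), and those of replicate 2 alone 4 genes (pan, dsh, sgg and nkd). The gene sgg was the only 1 of the 10 with a promoter IDR summit under each alternative tried. Genes among the strongest 1696 of each replicate numbered 1 with no flank, 4 with 10 kb, 2 with the strongest 848 and 6 with the strongest 3392. Shares over all protein-coding genes are not given for the 10 kb flank, for the strongest 848, or for both replicates with no flank. The median best rank was 3406 with no flank and 1604.5 with 10 kb, and 1984 in replicate 1 and 2120.5 in replicate 2, whose lists are longer than the pooled one. The replicate lists had 3.14 and 3.28 candidates per 10 kb. How far list length accounts for these values was not tested. The promoter share was 38.6% with 1000 bp, 17.8% in replicate 1 and 23.3% in replicate 2. Planar polarity genes with a peak numbered 2 without replicate 2 and 0 without replicate 1, an alternative chosen after seeing the data. In all, 16 of 41 recomputed values moved by over 1.5 times (counts), past their interval (shares) or past the spread between replicates (other values), and 25 did not. No paired analysis was possible because there is only 1 group. Depth is unknown, so a gene without a candidate is not shown to be unbound.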
